A study of Mus musculus with 6 samples.

Results

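Type 1 conventional dendritic cells of the mouse lung were picked from 6 single-cell RNA libraries as barcodes with at least 2 UMIs of Xcr1 plus Clec9a, at least 5 UMIs of Cd74 plus H2-Ab1, fewer than 2 UMIs of Ccr7 and 0 UMIs of Cd3e, Cd79a, Marco and Cdh5. A UMI, or unique molecular identifier, stands for 1 captured transcript. A barcode counted as a cell from 500 UMIs and 300 genes upward, if mitochondrial genes gave under 20% of its UMIs. The rule found 363 members among 76800 kept cells. PBS libraries 1 and 2 gave 131 and 174 of them, LPS libraries 1 and 2 gave 28 and 7, and the libraries of LPS with SLC activation gave 4 and 19. No barcode was shared between libraries among the members (0 of 363).

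Type 1 conventional dendritic cells take up dying cells, pathogens and other antigen, show it on MHC class I molecules to CD8 T cells (cross-presentation), and make interleukin 12. XCR1, the receptor of a chemokine from T cells and NK cells, and CLEC9A, a receptor for exposed actin of dead cells, mark the type. The cells depend on the growth factor receptor FLT3 and on the transcription factors IRF8 and BATF3, and in the lung many sit beneath the airway epithelium and carry the integrin encoded by Itgae. On maturation, dendritic cells raise co-stimulatory molecules such as CD40, CD80 and CD86, gain CCR7 and leave for the lymph node. Cells with 2 or more Ccr7 UMIs were outside the rule and 1 UMI was allowed: members held Ccr7 at 43.0 CPM (counts per 1e6 UMIs), against 21.9 CPM in type 2 and 1454 CPM in mature dendritic cells and 39.9 CPM over all kept cells.

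All mice were male C57BL/6J mice aged 12 weeks, with no genetic change named in the labels, and lungs were taken on day 3 after treatment. The 3 groups of 2 mice received PBS, LPS (lipopolysaccharide, a bacterial cell wall product that sets off inflammation) at 1 mg/kg, or LPS at the same dose with SLC activation given 7 times, which the labels also call SLC-Gq and which is written SLC_LPS here. The study's title names the subcoeruleus nucleus and the sympathetic nerve. The sources used here do not give how the activation was done, when it took place relative to LPS, or the route of LPS. A group that received the activation without LPS was not analysed here.

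The members held a median of 3949.5 to 8495.5 UMIs per cell, and their summed UMIs per library were 667041 and 729645 in PBS, 253020 and 46012 in LPS, and 20935 and 96311 in SLC_LPS. At these depths 1 UMI is worth 1.37 to 47.8 CPM (counts of a gene scaled to 1e6 UMIs of the members in a library), and 3 UMIs, the floor used for a gene at 0, are worth 11.9 CPM in LPS library 1, 31.1 CPM in SLC_LPS library 2, 65.2 CPM in LPS library 2 and 143 CPM in SLC_LPS library 1. Levels in the last 2 of these libraries, of 7 and 4 members, are therefore coarse. RNA from broken cells was expected to give 17.0% and 26.8% of the members' UMIs in PBS, 13.8% and 0% in LPS, and 0% and 15.4% in SLC_LPS. Each share is a median over 23 to 33 genes of other cell types with at least 50 CPM in the free RNA, and is rough in small libraries. Where it is 0%, members still held genes of the full lists of these cell types. Summed over the full lists, they were at 1021 CPM in LPS library 2 and 4012 CPM in SLC_LPS library 1. The free RNA held the full lists at 26671 and 17586 CPM. For single genes this free-RNA share is given where it is high, for the group in which the gene was highest.

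The label was checked against markers that the rule did not use, as a description. Flt3 stood at 253 CPM in the members, against 32.7 CPM in cells gated as type 2 conventional dendritic cells (by Cd209a, Clec10a and Mgl2) and 9.43 CPM over all kept cells. Wdfy4, which cross-presentation of dead-cell antigen requires, stood at 757 CPM in the members and 81.9 CPM in type 2 cells. Itgae reached 224 CPM in the members and 4.05 CPM in type 2 cells. Cells of the Ccr7-positive mature gate held Flt3 at 202 CPM, Wdfy4 at 274 CPM and Itgae at 71.9 CPM. Flt3 thus set the members little apart from mature dendritic cells. Itgam, a marker of type 2 cells that no gate used, went the other way, at 30.3 CPM in the members and 441 CPM in type 2 cells. Over all kept cells Itgam was at 413 CPM, so its level in type 2 cells was near that of the lung as a whole. Sirpa stood at 38.6, 171 and 166 CPM in members, type 2 cells and all kept cells. Irf4 differed less between the types, at 21.0 CPM in members and 31.1 CPM in type 2 cells. Both markers named for the type outside the rule, Flt3 and Wdfy4, were thus high in the members in every library, from 208 to 435 CPM and from 348 to 1142 CPM. Batf3 was sparse, at 14.9 CPM, and Cd8a, which marks the type in lymphoid organs, was at 2.76 CPM.

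The genes that set the members furthest apart from all other kept cells, leaving out Xcr1 and Clec9a, were led by Septin3, a septin, at 569 CPM against 5.15 CPM, which is 111-fold. Gcsam, Gpr141b, the phosphatidylserine receptor gene Timd4, Itgae and Flt3 followed at 86.6-fold, 60.3-fold, 48.6-fold, 46.6-fold and 34.9-fold. Hepacam2, Pianp, Tspan33, Tbc1d4, Klrb1b, Cadm1 and Zfp366 completed the list at 33.0-fold down to 16.9-fold. Cells of the type were chosen by their expression, so these values carry no test. Mature dendritic cells held Septin3 at 138 CPM, Gcsam at 39.4 CPM, Itgae at 71.9 CPM and Cadm1 at 244 CPM, below the members but above all kept cells. The folds pool all libraries, and most members came from PBS. Timd4 stood at 835 and 918 CPM in PBS, 11.9 and 2304 CPM in LPS, and 0 and 10.4 CPM in SLC_LPS. Just below the threshold, 228 barcodes that met the rest of the rule had 1 UMI of Xcr1 plus Clec9a and held Flt3 at 64.1 CPM and Itgae at 38.3 CPM. The 82 members with exactly 2 UMIs held Flt3 at 229 CPM and Itgae at 177 CPM, and the 281 members with 3 or more held them at 259 and 236 CPM. A further 93 barcodes were kept out by Ccr7 alone, with Flt3 at 298 CPM and Wdfy4 at 780 CPM.

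The share of type 1 cells was lower in every library after LPS than in either PBS library. Members made up 1.03% and 1.40% of kept cells in PBS, 0.204% and 0.0603% in LPS, and 0.0298% and 0.147% in SLC_LPS, with means of 1.22% ± 0.258, 0.132% ± 0.102 and 0.0883% ± 0.0828 (SD, n = 2). Exact binomial 95% intervals, which cover the counting of cells only, ran from 0.865% to 1.62% over both PBS libraries, from 0.0242% to 0.295% over both LPS libraries and from 0.00812% to 0.229% over both SLC_LPS libraries. LPS libraries and SLC_LPS libraries overlapped each other and lay below PBS. In an edgeR quasi-likelihood test on cells counted in 11 gated classes, the share fell in SLC_LPS against PBS by 3.77 on the log2 scale (SE 0.990, adjusted p = 0.0307). The LPS group alone against PBS gave -3.18 (SE 0.957) and did not pass (adjusted p = 0.0839), and SLC_LPS against LPS gave -0.59 (SE 0.947, adjusted p = 0.617). Both LPS groups together against PBS, a comparison added after the data were seen, gave -3.48 (SE 0.752, adjusted p = 0.0232). The exact permutation test of the shares, two-sided, gave p = 0.33 for each LPS group against PBS, the smallest that 2 against 2 libraries allow, and p = 0.133 for both together, the smallest that 4 against 2 allow.

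**Figure D1:**
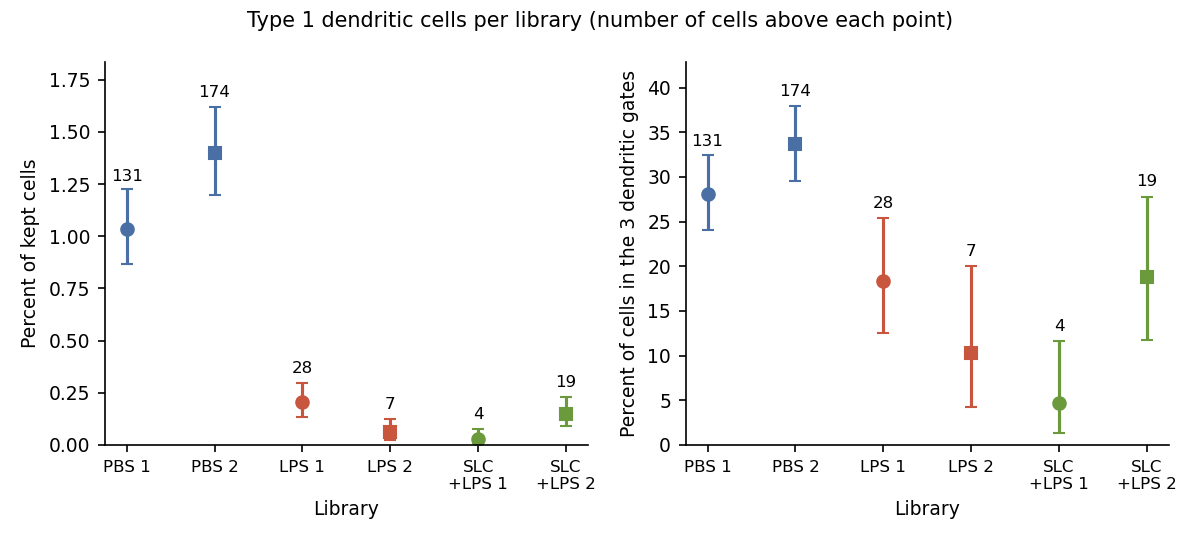
Share of type 1 dendritic cells in each library, as a percent of all kept cells (left) and of the cells in the 3 dendritic gates (right), with the number of members above each point; each point is 1 mouse and bars on points are exact binomial 95% intervals. Both PBS points lie above all 4 points after LPS in each panel.

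Neutrophils moved with this share: their gate held 16.8% and 13.4% of kept cells in PBS and 33.5% to 47.3% after LPS, and fewer cells of a type cannot be told apart from more cells of others in a share. Outside the neutrophil gate, members were 1.24% and 1.61% of cells in PBS, 0.307% and 0.0980% in LPS, and 0.0565% and 0.239% in SLC_LPS. With that denominator the fall in SLC_LPS was 3.25 on the log2 scale and no longer passed (adjusted p = 0.0658). The call was also lost with a stricter gate, with scaling over the classes, with the replicate number as a block, and without PBS library 1, PBS library 2 or SLC_LPS library 1. Among the cells of the 3 dendritic gates (type 1, type 2 and Ccr7-positive mature cells), type 1 cells were 28.1% and 33.7% in PBS, 18.3% and 10.3% in LPS, and 4.71% and 18.8% in SLC_LPS. Type 2 cells made up 2.06% ± 0.274 of kept cells in PBS, 0.444% ± 0.0428 in LPS and 0.360% ± 0.0496 in SLC_LPS (SD, n = 2). Both types had lower shares in all 4 libraries after LPS, and type 1 cells took a smaller part of the dendritic cells there.

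Gene levels were compared on UMIs summed per library over the members. LPS library 2 and SLC_LPS library 1 held fewer than 10 members and were left out of the fit, so each LPS group has 1 library in it and the spread comes from the 2 PBS libraries, with the lone libraries assumed to vary alike. In this edgeR fit of 4 libraries, 448 genes rose and 889 fell of 6541 in LPS against PBS (20.4% called; 6.85% higher and 13.6% lower), and 261 rose and 580 fell in SLC_LPS against PBS (12.9% called; 3.99% higher and 8.87% lower). Between SLC_LPS and LPS, 14 rose and 48 fell (0.948% called; 0.214% higher and 0.734% lower). Both LPS groups together against PBS gave 1641 calls (25.1%). With all 6 libraries, tried after the data were seen, no gene passed in any of these comparisons: 0 of 3405 (0.0%) by edgeR, where 345, 431 and 103 had an unadjusted p under 0.05 (10.1%, 12.7% and 3.02%), and 5, 16 and 0 by DESeq2. Leaving LPS library 2 out of these 6 gave 634, 461 and 7 calls. Every call given for these genes is therefore a call on 4 libraries, and the unadjusted p of the edgeR fit on all 6 is given beside most of them as "p over 6 libraries". The comparisons of both LPS groups with PBS share the PBS libraries, so their counts are given side by side only. Counting the calls whose 6 libraries also did not overlap left 171 higher and 489 lower genes for LPS (2.61% and 7.48% of those tested) and 170 higher and 450 lower for SLC_LPS (2.6% and 6.88%). Overlap was judged only between the libraries of the 2 groups compared, including libraries outside the fit. Without regard to the test, the libraries did not overlap for 22.2% of tested genes that were higher and 17.6% that were lower in LPS, and for 23.7% and 25.5% in SLC_LPS. In the 4 libraries the median change over all genes tested was -0.03 (log2) for LPS and -0.14 for SLC_LPS. The counts and medians of each gene list are to be read beside these medians and the shares of all genes called in this fit.

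Il12b, which encodes a subunit shared within the interleukin 12 family, fell in both LPS groups. Il12b stood at 1447 and 4021 CPM in PBS libraries 1 and 2, 43.5 and 109 CPM in LPS libraries 1 and 2, and 0 and 197 CPM in SLC_LPS libraries 1 and 2. All 4 libraries after LPS lay below both PBS libraries. The fit gave -6.25 (log2, SE 0.31, adjusted p = 6.36e-84; p over 6 libraries 0.000117) for LPS and -4.10 (SE 0.28, adjusted p = 9.27e-45; p over 6 libraries 0.000374) for SLC_LPS. At least 1 Il12b UMI was found in 69 of 131 and 143 of 174 members in PBS (52.7% and 82.2%), in 5 of 28 and 1 of 7 in LPS (17.9% and 14.3%), and in 0 of 4 and 3 of 19 in SLC_LPS (0%, with an exact upper bound of 60.2%, and 15.8%). Neutrophils, which should lack it, had a UMI in 0.0448% to 0.841% of cells at a lower depth. With each member thinned to 2000 UMIs, 47.6% and 75.7% of PBS members kept a UMI, against 11.1% and 14.3% in LPS and 0% and 16.7% in SLC_LPS. Type 2 cells held little Il12b in PBS, 22.6 to 52.7 CPM, while mature Ccr7-positive cells held 2606 to 4538 CPM. Mature cells were also lower after LPS, at 548 to 2201 CPM in LPS and 363 to 568 CPM in SLC_LPS. Type 2 cells held 6.18 to 347 CPM in LPS and 0 to 7.55 CPM in SLC_LPS.

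Genes of maturation and migration, the program that dendritic cells raise as they leave for lymph nodes, fell in the fit of 4 libraries and did not rise. Of 21 tested, 0 rose and 15 fell in LPS (median -1.95) and 0 rose and 13 fell in SLC_LPS (median -2.30). With all 6 libraries the fall in LPS was lost: of 15 tested, 0 were lower at an unadjusted p under 0.05 in LPS (median -0.32) and 6 in SLC_LPS (median -1.29). The rule had kept out 93 barcodes by Ccr7 alone, so cells furthest along this program were not scored and a rise in them could not show. That limit of 2 Ccr7 UMIs is stricter in deeper cells. Members held a median of 8495.5 UMIs in LPS library 1, against 4872 and 3949.5 in PBS. Ccl22, a chemokine that draws CCR4-bearing T cells, stood at 411 and 428 CPM in PBS, 0 and 348 CPM in LPS, and 47.8 and 10.4 CPM in SLC_LPS. It was at least 35.4-fold lower in LPS library 1 than in PBS, counting 3 UMIs as the floor of that library, and 40.4-fold lower in SLC_LPS library 2 (counting interval 7.22 to 1599, from 1 UMI). LPS library 2, with 16 UMIs, stayed close to PBS, and p over 6 libraries was 0.131 for LPS and 0.0252 for SLC_LPS. Its partner Ccl17 stood at 177 and 440 CPM in PBS, 3.95 and 978 CPM in LPS, and 0 and 0 CPM in SLC_LPS. The PBS and LPS ranges of Ccl17 overlapped through LPS library 2 (p over 6 libraries 0.867), and SLC_LPS lay below PBS, at least 10.1-fold lower in library 2 (p over 6 libraries 0.0459).

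Co-stimulatory genes followed the same order in the libraries of the fit. Cd40, the receptor through which helper T cells license dendritic cells, stood at 307 and 347 CPM in PBS, 39.5 and 522 CPM in LPS, and 239 and 0 CPM in SLC_LPS. It fell by 3.32 in LPS (SE 0.37, adjusted p = 1.22e-16; p over 6 libraries 0.512) and was at least 10.5-fold lower in SLC_LPS library 2 (p over 6 libraries 0.0917). Cd80, a CD28 ligand, stood at 304 and 351 CPM in PBS, 59.3 and 304 CPM in LPS, and 191 and 31.1 CPM in SLC_LPS. LPS library 2 was level with PBS library 1 for Cd80, and the other 3 libraries lay below PBS (p over 6 libraries 0.0959 and 0.0241). Cd86, the second CD28 ligand, stood at 877 and 926 CPM in PBS, 304 and 1065 CPM in LPS, and 573 and 457 CPM in SLC_LPS, and only SLC_LPS lay wholly below PBS (p over 6 libraries 0.251 and 0.0812). Cd83 fell by 0.89 in LPS (SE 0.20; p over 6 libraries 0.900) and 0.90 in SLC_LPS (SE 0.21; p over 6 libraries 0.0599), with 3912 CPM in LPS library 2 above the 2207 and 2250 CPM of PBS. The 28 members of LPS library 1 and the 7 of LPS library 2 thus differed for this program, and the fit saw only the former.

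**Figure D2:**
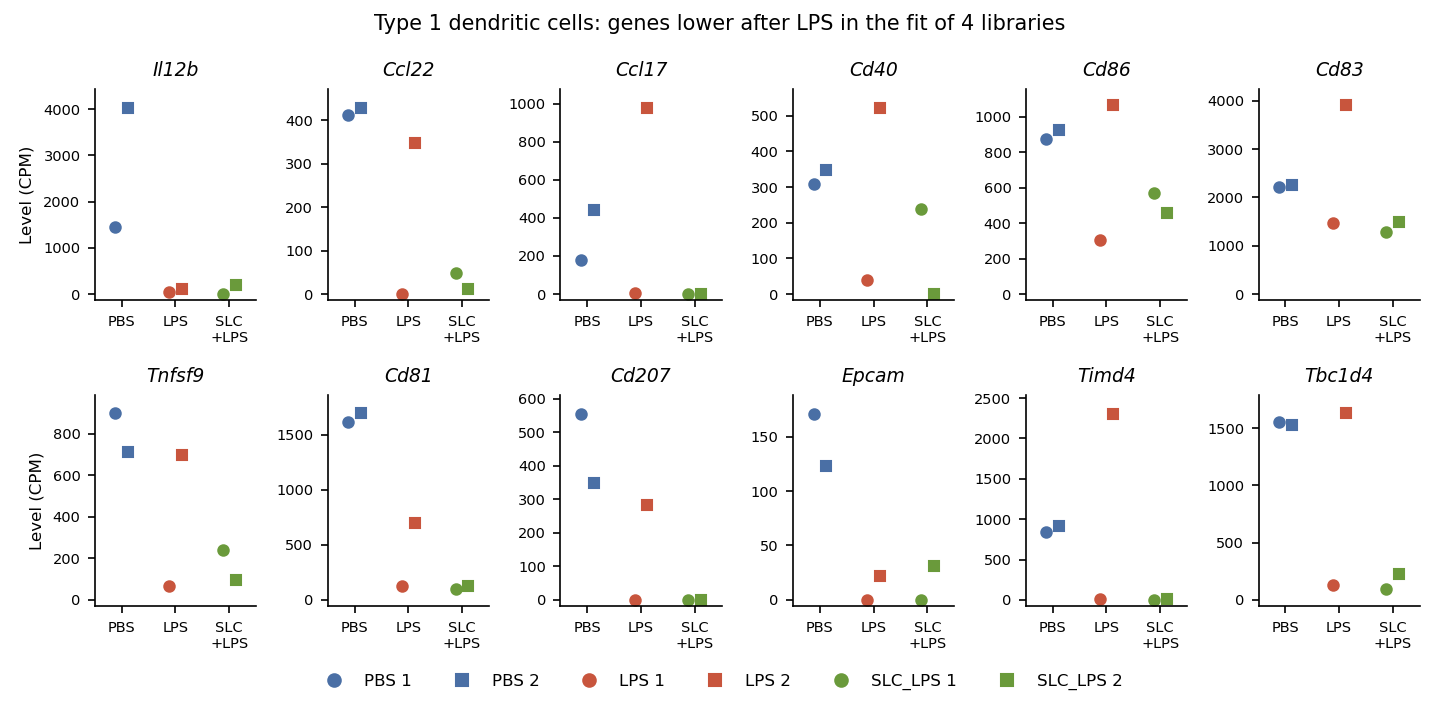
Levels in CPM of genes lower after LPS in the fit of 4 libraries, each point 1 library over its type 1 dendritic cells. LPS 2 (7 cells) and SLC_LPS 1 (4 cells) were not in the fit; Il12b falls from 1447 and 4021 CPM in PBS to at most 197 CPM, while LPS 2 sits near or above PBS for Timd4 and Tbc1d4.

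Cd207 and Epcam, which encode surface proteins, lay below PBS in all 4 libraries after LPS. Cd207, which encodes the lectin langerin, stood at 555 and 349 CPM in PBS, 0 and 283 CPM in LPS, and 0 and 0 CPM in SLC_LPS. It was at least 37.7-fold lower in LPS library 1 and at least 14.4-fold lower in SLC_LPS library 2 (p over 6 libraries 0.0825 and 0.0121), and 0 of 28, 4 of 7, 0 of 4 and 0 of 19 members held a UMI from LPS library 1 to SLC_LPS library 2, against 48.9% and 39.1% in PBS. Epcam, a cell adhesion molecule, stood at 171 and 123 CPM in PBS, 0 and 21.7 CPM in LPS, and 0 and 31.1 CPM in SLC_LPS. No library after LPS reached the PBS range of Epcam, which was at least 12.3-fold lower in LPS library 1 (p over 6 libraries 0.000309) and 4.69-fold lower in SLC_LPS library 2 (counting interval 1.58 to 22.9, from 3 UMIs; p over 6 libraries 0.00930). Cldn1, a tight junction claudin chosen after its values were seen, stood at 867 and 621 CPM in PBS, 55.3 and 956 CPM in LPS, and 47.8 and 20.8 CPM in SLC_LPS (p over 6 libraries 0.343 and 0.00514). Timd4 stood at 835 and 918 CPM in PBS, 11.9 and 2304 CPM in LPS, and 0 and 10.4 CPM in SLC_LPS (p over 6 libraries 0.936 and 0.0158), and Tbc1d4, a Rab GTPase-activating protein of the maturation list, at 1556 and 1528, 134 and 1630, and 95.5 and 228 CPM (p over 6 libraries 0.226 and 0.00785). For Cldn1, Timd4 and Tbc1d4, LPS library 2 lay above PBS and the other 3 libraries lay far below it.

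The tetraspanin gene Cd81 stood at 1615 and 1694 CPM in PBS, 130.4 and 695 CPM in LPS, and 95.5 and 125 CPM in SLC_LPS. Its libraries did not overlap, and it fell by 3.94 in LPS (SE 0.27; p over 6 libraries 0.00595) and by 4.04 in SLC_LPS (SE 0.31; p over 6 libraries 0.000445). Rgs1, a brake on chemokine receptor signalling, stood at 4096 and 3358 CPM in PBS, 585 and 2217 CPM in LPS, and 239 and 706 CPM in SLC_LPS, again without overlap (p over 6 libraries 0.0235 and 0.00102). Tnfsf9, the ligand of the T cell co-receptor 4-1BB, went from 898 and 714 CPM in PBS to 67.2 and 695 CPM in LPS and 239 and 93.4 CPM in SLC_LPS (p over 6 libraries 0.113 and 0.0176). Among the 10 largest falls of the naming rule were also Sema6d and Col27a1 for LPS, and Col27a1, Pdlim1, Dst and Tmco3 for SLC_LPS. Sema6d, a semaphorin, stood at 174 and 175 CPM in PBS, 3.95 and 65.2 CPM in LPS, and 0 and 62.3 CPM in SLC_LPS. Col27a1, a collagen chain, stood at 160 and 144, 3.95 and 21.7, and 95.5 and 0 CPM. Pdlim1 stood at 168 and 127 CPM in PBS and at 0 in both SLC_LPS libraries.

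Of the ranked falls, 5, Scgb3a2, Cyp2f2, Cbr2, Aldh1a1 and Dst, had 53.9% to 98.8% of their level expected from free RNA in PBS. Scgb3a2, an airway secretoglobin, was at 73.5 and 286 CPM in PBS and 0 in all 4 libraries after LPS. Markers of fibroblasts and epithelium moved the same way: 7 of 8 fibroblast genes and 4 of 6 epithelial genes fell in each LPS group and 0 rose. Summed, the 8 fibroblast genes were at 1394 and 4013 CPM in PBS and 130.4 to 692 CPM after LPS, and in the free RNA itself at 6411 and 6497 CPM in PBS and 1394 to 4704 CPM after LPS. All 8 genes were detected in PBS, and the part of free RNA in these falls was not tested gene by gene.

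Regulators of NF-kB, the transcription factor family that LPS activates, fell in the fit of 4 libraries and did not rise: 12 of 20 fell in LPS (median -1.11) and 10 of 20 in SLC_LPS (median -1.07). With all 6 libraries 2 of 18 were lower at an unadjusted p under 0.05 in LPS (median -0.61) and 9 of 18 in SLC_LPS (median -1.07). Tnfaip3, the feedback inhibitor A20, stood at 2839 and 2374 CPM in PBS, 893 and 2521 CPM in LPS, and 764 and 758 CPM in SLC_LPS. Both SLC_LPS libraries lay below PBS (-2.09, SE 0.23; p over 6 libraries 0.00198), while LPS overlapped PBS through library 2 (-1.83, SE 0.21; p over 6 libraries 0.0977). Bcl2a1a, a survival gene of the Bcl2 family with near-identical copies between which reads can be split, stood at 1082 and 996 CPM in PBS, 206 and 609 CPM in LPS, and 334 and 135 CPM in SLC_LPS, and its libraries did not overlap (p over 6 libraries 0.0169 and 0.00238). Nfkbiz, which encodes an atypical IkB protein, stood at 769 and 846 CPM in PBS, 229 and 608.5 CPM in LPS, and 525 and 156 CPM in SLC_LPS, also without overlap (p over 6 libraries 0.0674 and 0.0233). Nfkb1, Rel and Traf1 fell in both groups, with p over 6 libraries of 0.108 to 0.565 for LPS and 0.00500 to 0.0880 for SLC_LPS. Nfkbia fell in LPS by 0.83 (SE 0.19) and gave -0.32 (SE 0.19) in SLC_LPS, and the difference between these groups did not pass (0.51, SE 0.21, adjusted p = 0.338).

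Chemokines and cytokines split. Of 24 tested, 9 rose and 10 fell in LPS (median -0.62), and 3 rose and 11 fell in SLC_LPS (median -1.64). Cxcl9, a ligand of CXCR3 on effector T cells and NK cells, stood at 24.0 and 16.4 CPM in PBS, 652 and 86.9 CPM in LPS, and 1003 and 291 CPM in SLC_LPS. Every library after LPS lay above PBS, with a rise of 4.72 in LPS (SE 0.30, adjusted p = 2.05e-53; p over 6 libraries 0.000852) and of 3.52 in SLC_LPS (SE 0.39, adjusted p = 1.79e-14; p over 6 libraries 0.000703). A Cxcl9 UMI was found in 6.87% and 5.75% of members in PBS, 64.3% and 14.3% in LPS, and 50% and 57.9% in SLC_LPS. Neutrophils of the same libraries had one in 0.0471% to 17.9% of cells, and 5.26% of the members' level was expected from free RNA. In LPS library 2 all 4 Cxcl9 UMIs came from 1 of the 7 members. In SLC_LPS library 1, 18 of 21 came from 1 of the 4 members, and in LPS library 1, 73 of 165 came from 1 of the 28. Tnf, the inflammatory cytokine, stood at 567 and 715 CPM in PBS, 356 and 283 CPM in LPS, and 334 and 166 CPM in SLC_LPS, falling by 1.13 (SE 0.24; p over 6 libraries 0.0272) and 2.26 (SE 0.32; p over 6 libraries 0.00531) without overlap. Il1rn, which encodes the interleukin 1 receptor antagonist, rose by 3.08 in LPS and 1.70 in SLC_LPS (p over 6 libraries 0.000585 and 0.00491), with a free-RNA share of 49.6%.

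The other ranked rises were led by Saa3, an acute-phase gene. Saa3 was at 0 in both PBS libraries, 601 and 21.7 CPM in LPS, and 382 and 530 CPM in SLC_LPS, at least 280-fold higher in LPS library 1 and at least 247-fold higher in SLC_LPS library 2 than the floor over the PBS group. Free RNA was expected to give 37.9% of it, and neutrophils of the same libraries held a UMI in 21.6% to 69.1% of cells after LPS. Plac8 stood at 117 and 74.0 CPM in PBS, 1348 and 500 CPM in LPS, and 955 and 1900 CPM in SLC_LPS, with 3.502% expected from free RNA. It rose by 3.54 in LPS (SE 0.22; p over 6 libraries 0.000535) and 4.003 in SLC_LPS (SE 0.22; p over 6 libraries 0.000205), and 26 of 28 and 19 of 19 members of the libraries in the fit held a UMI. In LPS library 2, 3 of 7 members held a Plac8 UMI, and 12 of the 23 UMIs came from 1 member. In SLC_LPS library 1, 14 of the 20 UMIs came from 1 of the 4 members. Ly6c2, a Ly6 surface antigen best known from classical monocytes, stood at 112 and 21.9 CPM in PBS, 648 and 1391 CPM in LPS, and 191 and 831 CPM in SLC_LPS, without overlap (p over 6 libraries 0.00182 and 0.00843). In LPS library 2, 62 of its 64 UMIs came from 1 of the 7 members, so the level there rests on that cell. Neutrophils of the same libraries held a Ly6c2 UMI in 36.1% to 63.9% of cells after LPS. Casp6, a caspase, stood at 14.99 and 15.08 CPM in PBS, 134 and 152 CPM in LPS, and 95.5 and 104 CPM in SLC_LPS (p over 6 libraries 5.11e-05 and 0.00166), from at most 34 UMIs a library. Ly6i, Lcn2, Retnlg and Wfdc21 had a free-RNA share of 31.2% to 46.9%, and Mid1 one of 69.4%. Grk6, a kinase of G protein-coupled receptors, stood at 21.0 and 9.59 CPM in PBS, 43.5 and 0 CPM in LPS, and 95.5 and 166 CPM in SLC_LPS.

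**Figure D3:**
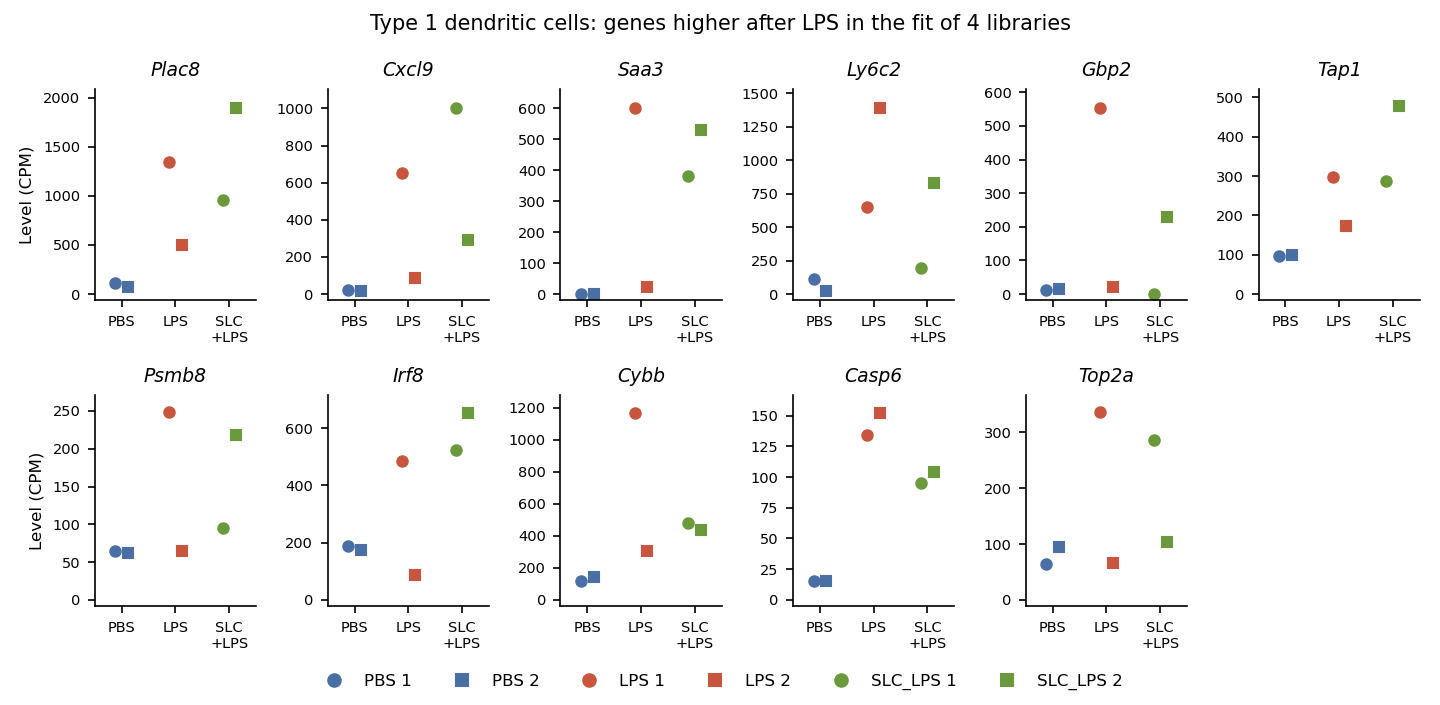
Levels in CPM of genes higher after LPS in the fit of 4 libraries, each point 1 library over its type 1 dendritic cells. Plac8, Cxcl9, Tap1 and Casp6 lie above PBS in all 4 libraries after LPS; LPS 2 (7 cells) and SLC_LPS 1 (4 cells) were not in the fit.

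Neutrophil genes rose beside these: 5 of 9 tested in LPS and 6 of 9 in SLC_LPS, with 1 fall in each. Summed over 14 listed genes they were at 795 and 926 CPM in PBS, 2707 and 782 CPM in LPS, and 3344 and 3063 CPM in SLC_LPS, and in the free RNA at 3403 to 3738 CPM in PBS and 10602 to 23214 CPM after LPS. S100a8 stood at 48.0 and 87.7 CPM in PBS, 356 and 174 CPM in LPS, and 1003 and 519 CPM in SLC_LPS, with 63.6% expected from free RNA. Of the 14 genes, 1, 1, 1, 8, 4 and 1 were at 0 in the members of the 6 libraries, in the order PBS, LPS, SLC_LPS. Alveolar macrophage genes summed to 753 and 807 CPM in PBS, 1996 and 2347 CPM in LPS, and 908 and 966 CPM in SLC_LPS. Of the 10 listed, 1, 0, 1, 8, 6 and 4 were at 0 in the members of the 6 libraries, in the same order. The sum in LPS library 2 thus rests on few genes. Over the 7 tested, the median change in LPS was 0.02. The part of such RNA in the rises was not tested.

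Interferon-induced GTPases of the GBP and IRG families, which attack vacuoles holding microbes, rose in LPS: 7 of 9 tested rose and 0 fell (median 3.48), and in SLC_LPS 2 rose and 0 fell (median 2.72). Gbp2 stood at 12.0 and 15.1 CPM in PBS, 553 and 21.7 CPM in LPS, and 0 and 228 CPM in SLC_LPS. LPS lay above PBS in both libraries (5.04, SE 0.32; p over 6 libraries 0.00122), and SLC_LPS overlapped PBS through the 4 members of library 1 (3.73, SE 0.45; p over 6 libraries 0.0162). Free RNA was expected to give 20.7% of the level of Gbp2 and 19.97% to 96.0% of that of the other genes. Apart from Gbp2 and Ifi47, these calls rest on 9 to 19 UMIs in LPS library 1 and at most 4 in SLC_LPS library 2. The broader interferon-stimulated list moved in both directions. Over its 22 tested genes the median change was 0.18 in LPS and -0.16 in SLC_LPS, against -0.03 and -0.14 over all genes tested. Oasl1, an interferon-induced gene of the oligoadenylate synthetase family, stood at 149.9 and 207 CPM in PBS, 94.9 and 43.5 CPM in LPS, and 95.5 and 31.1 CPM in SLC_LPS. It fell in both groups without overlap, by 1.19 in LPS (SE 0.34; p over 6 libraries 0.0240) and 2.82 in SLC_LPS (SE 0.57; p over 6 libraries 0.00801), and Ifit1 and Ifit2 fell in LPS.

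The promoters of the GTPases that rose are shown because 5 of the 6 found in the RefSeq table hold an interferon-stimulated response element, searched on both strands as GAAA, any 2 bases and GAAA again, in the 250 bases before the gene's start. Over all promoters 974 of 32817 hold it (2.97%), or 3.45% of genes. The interferon-gamma-activated sequence (GAS), searched as TTC, any 3 bases and GAA, which reads the same on both strands, was in 3 of the 6 and in 7.01% of all promoters, or 8.12% of genes. Each line gives 30 bases of RefSeq sequence on GRCm38.p6, 5′ to 3′ on the gene's strand, with the interferon-stimulated response element in capitals. A match is a description of the sequence and not a measured site, and the build named in the submitters' processing notes is GRCm39.
Gbp2, chr3:142620594-142620623, plus strand: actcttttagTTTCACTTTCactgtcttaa
Gbp5, chr3:142496759-142496788, plus strand: acttgtgtagTTTCAATTTCagtttagaga
Gbp7, chr3:142530273-142530302, plus strand: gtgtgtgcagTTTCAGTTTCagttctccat
Igtp, chr11:58199512-58199541, plus strand: tctaggaactGAAACTGAAAgctgttcggg
Irgm1, chr11:48871425-48871454, minus strand: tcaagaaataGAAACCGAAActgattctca
The element began 59 bases before the start in Gbp2, 165 in Gbp5, 53 in Gbp7, 34 in Igtp and 24 in Irgm1, where a further match at 30 bases overlaps it. Gbp5, Gbp7 and Igtp also hold the GAS letters.

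Genes of MHC class I and cross-presentation rose in part: 8 of 25 tested rose and 0 fell in LPS (median 0.48), and 6 rose and 0 fell in SLC_LPS (median -0.04). The median of SLC_LPS thus lay near that of all genes while 6 single members passed. Tap1, a subunit of the pump that carries peptides into the endoplasmic reticulum, stood at 97.4 and 100.05 CPM in PBS, 296 and 174 CPM in LPS, and 287 and 478 CPM in SLC_LPS. All libraries after LPS lay above PBS, with rises of 1.30 (SE 0.28; p over 6 libraries 0.0306) and 1.96 (SE 0.30; p over 6 libraries 0.00410). Psmb8, an immunoproteasome subunit, stood at 64.5 and 61.7 CPM in PBS, 249 and 65.2 CPM in LPS, and 95.5 and 218 CPM in SLC_LPS, and Pdia3, a chaperone of peptide loading, at 522 and 410, 1000 and 652, and 573 and 945 CPM. Neither overlapped PBS (p over 6 libraries 0.0235 and 0.0598 for Psmb8, 0.166 and 0.312 for Pdia3), though LPS library 2 exceeded PBS for Psmb8 by less than 1 CPM. Cybb, the NADPH oxidase subunit that keeps dendritic cell phagosomes from acidifying, stood at 117 and 144 CPM in PBS, 1166 and 304 CPM in LPS, and 478 and 436 CPM in SLC_LPS. It rose by 2.87 in LPS (SE 0.22; p over 6 libraries 0.00281) and 1.42 in SLC_LPS (SE 0.28; p over 6 libraries 0.0360), with 20.9% expected from free RNA. Only Cybb among the 8 matched genes that rose in LPS holds the interferon-stimulated letters in its promoter, and only Psmb8 the GAS letters.

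The MHC class II chain genes H2-Aa and H2-Eb1 fell in both LPS groups. H2-Aa stood at 16047 and 13179 CPM in PBS, 7355 and 8454 CPM in LPS, and 10652 and 10497 CPM in SLC_LPS. Its libraries did not overlap, and it fell by 1.27 in LPS (SE 0.18; p over 6 libraries 0.000671) and 0.79 in SLC_LPS (SE 0.17; p over 6 libraries 0.00664). SLC_LPS lay above LPS in both libraries, but the difference between them did not pass (0.48, SE 0.20, adjusted p = 0.316). H2-Eb1 stood at 4228 and 4021 CPM in PBS, 2379 and 3086 CPM in LPS, and 3009 and 2575 CPM in SLC_LPS, also without overlap from PBS (p over 6 libraries 0.0190 and 0.0136). In all, 1 of 14 class II genes rose (Ifi30, a lysosomal thiol reductase) and 3 fell in LPS (median -0.33), and 0 rose and 2 fell in SLC_LPS (median 0.28). H2-Ab1 and Cd74 belong to the rule and were not counted. H2-Ab1, the partner chain of H2-Aa, stood at 13028 and 10140 CPM in PBS, 9972 and 7433 CPM in LPS, and 12658 and 10985 CPM in SLC_LPS, where both libraries lay within the PBS range.

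Identity genes of the type moved in both directions. Of the 30 genes listed, 28 are in the files and 24 were tested: 3 rose and 8 fell in LPS (median -0.31), and 2 rose and 6 fell in SLC_LPS (median 0.04). With all 6 libraries 0 of 21 were higher and 2 lower at an unadjusted p under 0.05 in LPS, and 1 was higher and 2 lower in SLC_LPS. Irf8 stood at 187 and 173 CPM in PBS, 486 and 86.9 CPM in LPS, and 525 and 654 CPM in SLC_LPS. It rose by 1.15 in LPS (SE 0.24; p over 6 libraries 0.303), where library 2 with 4 UMIs lay below PBS, and by 1.55 in SLC_LPS (SE 0.26; p over 6 libraries 0.0433), where both libraries lay above. Tlr11, a sensor of profilin, rose in both groups from at most 17 UMIs a library, and Cxcr3 in LPS from 12. Cst3, the protease inhibitor cystatin C, stood at 4628 and 4845 CPM in PBS, 2731 and 2499 CPM in LPS, and 2579 and 2803 CPM in SLC_LPS. It fell by 1.076 (SE 0.19; p over 6 libraries 0.00394) and 1.07 (SE 0.19; p over 6 libraries 0.00314), with all 4 libraries after LPS within a narrow range below PBS. Cadm1, an adhesion molecule that binds CRTAM on T cells, stood at 718 and 651 CPM in PBS, 237 and 500 CPM in LPS, and 573 and 415 CPM in SLC_LPS (p over 6 libraries 0.0335 and 0.128), and the scavenger receptor gene Cd36 at 477 and 414, 206 and 283, and 47.8 and 208 CPM (p over 6 libraries 0.0556 and 0.0112). Ifi205, Zbtb46 and Ly75 passed as lower in both groups, with LPS library 2 above PBS for all 3, at 869, 739 and 761 CPM (p over 6 libraries 0.303 to 0.621 for LPS and 0.0778 to 0.205 for SLC_LPS).

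Other identity genes, among them Flt3, Wdfy4, Naaa and Itgae, gave values that did not pass. Flt3 stood at 255 and 248 CPM in PBS, 249 and 435 CPM in LPS, and 239 and 208 CPM in SLC_LPS, with fitted changes of -0.30 (SE 0.27) and -0.59 (SE 0.33). Wdfy4 stood at 726 and 695, 945 and 348, and 764 and 1142 CPM. Naaa, a lysosomal amidase, stood at 643 and 703, 696 and 456, and 1337 and 851 CPM, and Itgae at 232 and 214, 221 and 174, and 334 and 260 CPM. Btla, Ppt1 and Rab7b ranged from 143 to 260, from 619 to 1099 and from 191 to 363 CPM. Id2 and Septin3 passed in LPS alone. Id2 fell in LPS (-0.70, SE 0.21; p over 6 libraries 0.832) and gave 0.07 (SE 0.21) in SLC_LPS, a difference between the groups that did not pass (adjusted p = 0.0928), with 2173 CPM in LPS library 2 above the 1390 and 1076 CPM of PBS. Septin3, the gene that set members furthest apart, fell in LPS by 1.32 (SE 0.24; p over 6 libraries 0.160) and gave -0.48 (SE 0.25) in SLC_LPS; the difference between the groups did not pass (0.84, SE 0.30, adjusted p = 0.219). Batf3, Tlr3, Itgax, Gcsam and Cd24a were tested and did not pass in either group.

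**Figure D4:**
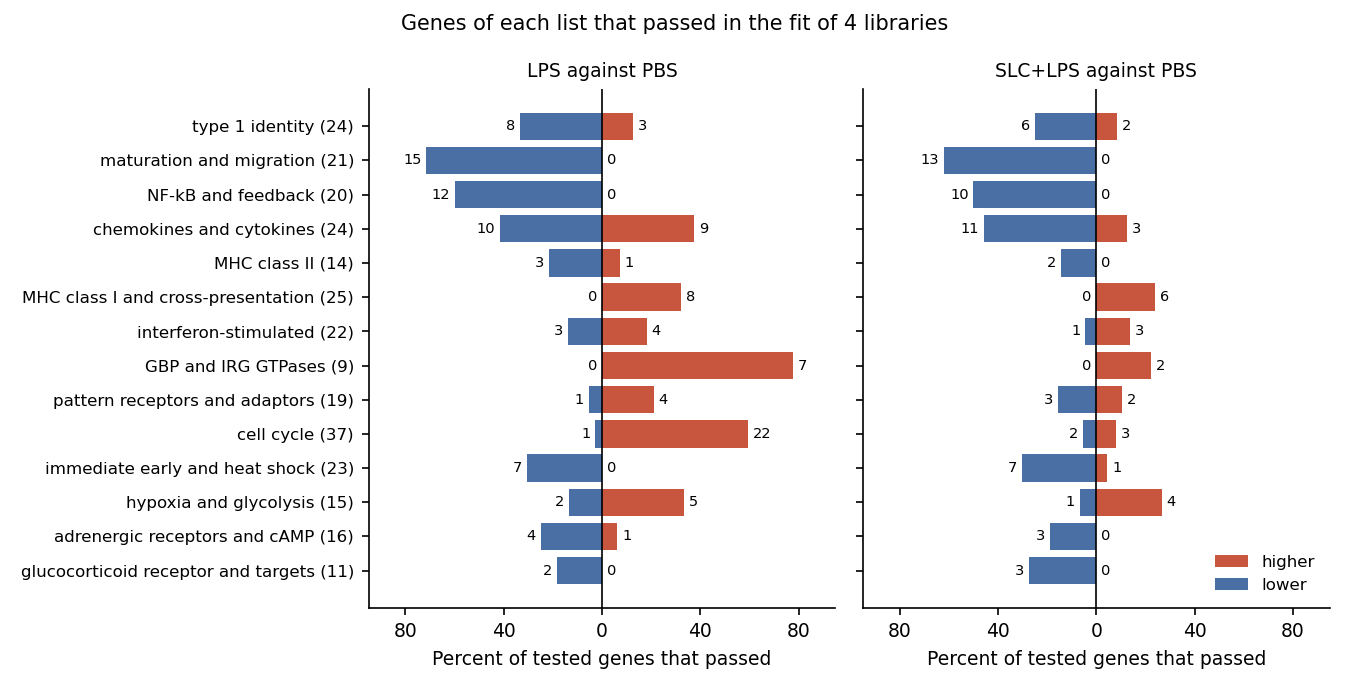
Percent of tested genes of each list that were higher (right) or lower (left) in type 1 dendritic cells, with the number of genes at each bar and the number tested in brackets, in LPS and in SLC_LPS against PBS in the fit of 4 libraries. Maturation and migration genes and NF-kB regulators have falls and no rise, GBP and IRG GTPases and MHC class I genes have rises and no fall, and cell cycle genes have 22 rises in LPS and 3 in SLC_LPS.

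Cell cycle genes rose in LPS library 1: 22 of 37 tested rose and 1 fell in LPS (median 1.52), and 3 rose and 2 fell in SLC_LPS (median 0.57). Top2a, a topoisomerase of dividing cells, stood at 64.5 and 94.6 CPM in PBS, 336 and 65.2 CPM in LPS, and 287 and 104 CPM in SLC_LPS. PBS and LPS overlapped, and it rose in LPS by 1.79 (SE 0.28; p over 6 libraries 0.0393) and not in SLC_LPS (0.07, SE 0.46); the difference between SLC_LPS and LPS passed (-1.72, SE 0.45, adjusted p = 0.0206; p over 6 libraries 0.347). Ccna2, a cyclin, stood at 13.5 and 15.1 CPM in PBS, 130.4 and 21.7 CPM in LPS, and 95.5 and 41.5 CPM in SLC_LPS, from at most 33 UMIs a library, and rose in LPS by 2.88 (SE 0.49; p over 6 libraries 0.00337). Mki67, another proliferation marker, went the other way, at 385 and 418 CPM in PBS, 217 and 674 CPM in LPS, and 334 and 228 CPM in SLC_LPS, and passed as lower in both groups (p over 6 libraries 0.787 and 0.169). After thinning to 2000 UMIs, 16.7% and 22.5% of PBS members held at least 3 UMIs of 16 cell cycle genes, against 40.7% and 42.9% in LPS and 25% and 22.2% in SLC_LPS, or 11 of 27, 3 of 7, 1 of 4 and 4 of 18 members after LPS. Unthinned, these shares were 39.7%, 36.8%, 50%, 71.4%, 25% and 26.3%. No test of these per-cell shares was made, and part of the UMIs is from free RNA.

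Since the title of the study names the sympathetic nerve, adrenergic receptors and the cAMP genes downstream of them were listed, with the glucocorticoid receptor and its targets. Of 16 adrenergic and cAMP genes tested, 1 rose and 4 fell in LPS (median -0.44), and 0 rose and 3 fell in SLC_LPS (median -0.78). In LPS the share of these genes that rose was close to that of all genes tested. The share that fell was larger than over all genes in both groups. The adrenergic receptor gene Adrb1 had 3 and 5 UMIs in PBS and 0 in the other libraries, and Adrb3 had 1 UMI in all. The orphan nuclear receptor genes Nr4a1, Nr4a2 and Nr4a3 are early response genes, and Nr4a2 was the one rise. Nr4a2 stood at 306 and 359 CPM in PBS, 632 and 130.4 CPM in LPS, and 382 and 592 CPM in SLC_LPS, and rose in LPS by 0.64 (SE 0.22; p over 6 libraries 0.811) with overlap. Nr4a3 stood at 1456 and 1266 CPM in PBS, 162 and 978 CPM in LPS, and 430 and 197 CPM in SLC_LPS, and fell by 3.35 (SE 0.26; p over 6 libraries 0.0523) and 3.10 (SE 0.29; p over 6 libraries 0.00900) without overlap. Nr4a1 stood at 847 and 699 CPM in PBS, 680 and 478 CPM in LPS, and 525 and 176.5 CPM in SLC_LPS; it fell in SLC_LPS by 2.44 (SE 0.30; p over 6 libraries 0.0158) and gave -0.47 (SE 0.22) in LPS, and the difference between SLC_LPS and LPS passed (-1.97, SE 0.33, adjusted p = 3.45e-06; p over 6 libraries 0.0922). Pde4b, a cAMP phosphodiesterase, fell in both groups (-2.14, SE 0.26, and -1.64, SE 0.28; p over 6 libraries 0.209 and 0.0281), with LPS library 2 above PBS at 804 CPM.

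Of 11 glucocorticoid genes tested, 0 rose, and 2 fell in LPS and 3 in SLC_LPS. Anxa1, annexin A1, stood at 520 and 450 CPM in PBS, 249 and 761 CPM in LPS, and 191 and 166 CPM in SLC_LPS, and fell in SLC_LPS without overlap (-1.86, SE 0.33; p over 6 libraries 0.0174). It also fell in the LPS fit (-1.24, SE 0.26; p over 6 libraries 0.675), with LPS library 2 above PBS. Fkbp5 and Tsc22d3, which glucocorticoids raise, did not pass, with changes of 0.05 (SE 0.38) and -0.97 (SE 0.39) in LPS and 0.41 (SE 0.47) and -0.11 (SE 0.44) in SLC_LPS.

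Direct comparison of SLC_LPS with LPS set 1 library of 19 members against 1 of 28. Of the 62 genes that passed, 2 were higher and 13 lower without overlap over all 4 libraries of these groups (0.0306% and 0.199% of those tested); without regard to the test, 12.4% and 14.0% of genes did not overlap. Mid1, a ubiquitin ligase, stood at 3.95 and 0 CPM in LPS and 95.5 and 135 CPM in SLC_LPS, with 69.4% of it expected from free RNA. Epc1, a chromatin protein, stood at 63.2 and 174 CPM in LPS and 191 and 260 CPM in SLC_LPS, with 95.9 and 111 CPM in PBS (p over 6 libraries 0.0544 against LPS). Sgk1, a kinase induced by glucocorticoids and other stimuli, stood at 285 and 174 CPM in LPS and 47.8 and 72.7 CPM in SLC_LPS, against 196 and 166 CPM in PBS. It was lower in SLC_LPS than in either other group (against LPS -1.995, SE 0.48, adjusted p = 0.00731; p over 6 libraries 0.00803). Fos, an immediate early gene with 45.7% expected from free RNA, stood at 470 and 304 CPM in LPS and 191 and 187 CPM in SLC_LPS, against 550 and 566 CPM in PBS (-1.36, SE 0.35, adjusted p = 0.0148; p over 6 libraries 0.0392). Klf6 stood at 1447 and 1934 CPM in LPS and 1337 and 789 CPM in SLC_LPS (-0.91, SE 0.24, adjusted p = 0.0279; p over 6 libraries 0.0575).

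Ccl2, the monocyte chemoattractant, stood at 170 and 21.7 CPM in LPS and at 0 in both SLC_LPS libraries, against 55.5 and 94.6 CPM in PBS, and was at least 5.46-fold lower in SLC_LPS library 2 than in LPS library 1. Pals2, a polarity protein, had 40 and 5 UMIs in LPS and 2 and 1 in SLC_LPS, a ratio of 15.2 in the libraries of the fit (counting interval 2.58 to 616). Tmed2, a cargo receptor of the secretory pathway, stood at 498 and 543 CPM in LPS and 239 and 208 CPM in SLC_LPS (-1.29, SE 0.35, adjusted p = 0.0279; p over 6 libraries 0.0154), and Fth1, the ferritin heavy chain, at 5577 and 6498 and at 4777 and 2108 CPM. Cd14, the LPS co-receptor, stood at 597 and 456 CPM in LPS and 95.5 and 239 CPM in SLC_LPS (-1.35, SE 0.33, adjusted p = 0.0105; p over 6 libraries 0.0210). Its free-RNA share was 36.5%, and its sign turned under the stricter gate (0.34). The 5 genes with the smallest p among those higher in SLC_LPS were Gpr171, Ahnak, Dapk1, Mcl1 and Il12b, and the libraries of the 2 groups overlapped for each. Each turned sign under an alternative: Ahnak gave -0.95 over all 6 libraries, and of these 6 without SLC_LPS library 2 Gpr171 gave -0.84, Dapk1 -0.23 and Mcl1 -0.40. Gpr171, an orphan receptor, stood at 71.1 and 43.5 CPM in LPS and 47.8 and 415 CPM in SLC_LPS. Il12b was 2.14 higher in SLC_LPS than in LPS (SE 0.42, adjusted p = 0.0120), from 19 UMIs against 11, with 0 UMIs in SLC_LPS library 1, and p over 6 libraries was 0.293. Without SLC_LPS library 2, the value for Il12b in type 1 dendritic cells, SLC_LPS against LPS, was -7.19 over the other libraries, against a group at 0. No gene passed this comparison with all 6 libraries.

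Type 2 conventional dendritic cells from the same libraries served to ask whether the response was shared. The difference in response (type 1 minus type 2, the interaction in edgeR with the library as a block) passed for 51 of 8305 genes in LPS (0.614%), 11 of them more positive and 40 more negative in type 1 cells (0.132% and 0.482%). In SLC_LPS it passed for 24 (0.289%), 2 more positive and 22 more negative (0.0241% and 0.265%). With all 6 libraries, 37 and 25 passed of 6574 (0.563% and 0.38%), so that this comparison, unlike the one within type 1 cells, kept calls when the small libraries entered. For SLC_LPS against LPS 0 passed by edgeR (0.0%; 574 at an unadjusted p under 0.05) and 4 with all 6 libraries (0.0608%). The comparisons for LPS and for SLC_LPS share the PBS libraries. Genes that passed in both the fit of 4 and that of all 6 libraries, a choice made after the values were seen, numbered 15 for LPS and 10 for SLC_LPS.

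Il1b, the interleukin 1β gene, is among them. Type 1 cells held 6623 and 8777 CPM in PBS, 2802 and 6281 CPM in LPS, and 6257 and 2471 CPM in SLC_LPS. Type 2 cells held 2440 and 3584 CPM in PBS, 5800 and 8034 CPM in LPS, and 4860 and 4375 CPM in SLC_LPS. Every library after LPS was thus below PBS in type 1 cells and above PBS in type 2 cells. Neutrophils held an Il1b UMI in 98.6% to 99.4% of cells over the 6 libraries. Their gate held 16.8% and 13.4% of kept cells in PBS and 33.5% to 47.3% after LPS. The part of free RNA in the Il1b levels of either type was not tested. The response differed by -2.59 in LPS (log2, SE 0.19, adjusted p = 0.000334; all 6 libraries adjusted p = 4.43e-06) and by -2.48 in SLC_LPS (SE 0.20, adjusted p = 0.00102; all 6 libraries adjusted p = 0.000341).

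Tnfsf9, Cd40, Bcl2a1a and Malt1, a scaffold protein of antigen receptor signalling, responded more negatively in type 1 than in type 2 cells in LPS, with differences of -3.43, -3.12, -2.23 and -3.17. Malt1 stood in type 1 cells at 468 and 469 CPM in PBS and 63.2 and 630 CPM in LPS, so LPS library 2 lay above PBS. Rgs1 went from 300 and 452 CPM in type 2 cells in PBS to 373 to 862 CPM after LPS, with differences in response of -2.85 in LPS and -2.84 in SLC_LPS. Cd81 in type 2 cells stood at 744 and 640 CPM in PBS and 216 to 396 CPM after LPS, so it was lower in both types, and further in type 1 cells in SLC_LPS (-3.22, SE 0.35, adjusted p = 0.00951). Ifi205 stood at 18.1 and 14.8 CPM in type 2 cells in PBS and 92.6 and 159 CPM in LPS, while in type 1 cells LPS library 1 lay below and LPS library 2 above PBS (-4.64, SE 0.37, adjusted p = 0.000362). Mki67 in type 2 cells stood at 81.5 and 117 CPM in PBS and 138 to 257 CPM after LPS, and its response differed in SLC_LPS (-2.48, SE 0.38, adjusted p = 0.0261).

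**Figure D5:**
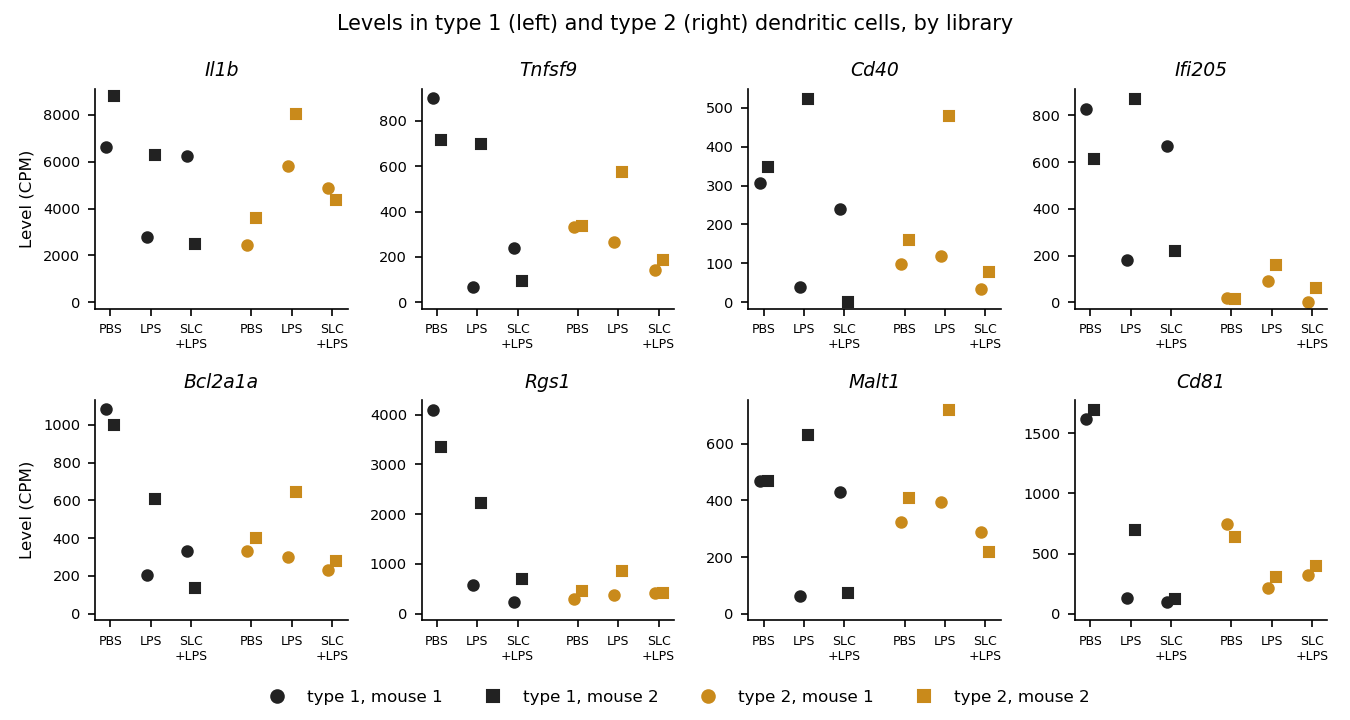
Levels in CPM of genes whose response differed between type 1 and type 2 dendritic cells, each point 1 library, with type 1 cells on the left and type 2 cells on the right of each panel. Il1b is lower after LPS than in PBS in type 1 cells and higher in type 2 cells in all 4 libraries.

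Immediate early genes and heat shock genes, which tissue digestion can raise, were also listed: 0 of 23 rose and 7 fell in LPS, and 1 rose and 7 fell in SLC_LPS. Hspa1b, an inducible chaperone with 43.5% expected from free RNA, was at 211 and 104 CPM in PBS members, 51.4 and 43.5 CPM in LPS and 430 and 62.3 CPM in SLC_LPS (p over 6 libraries 0.0356 and 0.756). Hypoxia and glycolysis genes gave 5 rises and 2 falls of 15 in LPS and 4 rises and 1 fall in SLC_LPS, with Ldha, lactate dehydrogenase A, at 315 and 197 CPM in PBS, 510 and 109 CPM in LPS, and 764 and 675 CPM in SLC_LPS. Checkpoint genes gave 1 rise and 4 falls of 9 in LPS and 1 rise and 2 falls in SLC_LPS. Cd274, the ligand PD-L1, was the rise, at 124 and 130.2 CPM in PBS, 320 and 348 CPM in LPS, and 287 and 301 CPM in SLC_LPS, without overlap (p over 6 libraries 0.0127 and 0.0483) and with 33.3% expected from free RNA. Sting1, a sensor of cyclic dinucleotides, was 1 of 4 pattern receptor genes that rose of 19 in LPS and 1 of 2 in SLC_LPS, at 58.5 and 43.9 CPM in PBS, 154 and 174 CPM in LPS, and 95.5 and 280 CPM in SLC_LPS. Nlrp3, the inflammasome sensor, fell in both groups without overlap, from 1736 and 1732 CPM in PBS to 891 to 1443 CPM after LPS (p over 6 libraries 0.0202 and 0.0945). Among chemokine receptors and homing genes 3 of 21 rose and 4 fell in LPS and 2 rose and 2 fell in SLC_LPS, and of 13 type 2 and monocyte genes 3 rose and 5 fell in LPS and 1 rose and 2 fell in SLC_LPS. Of plasmacytoid, T and NK, B and endothelial cell markers, 3, 3, 2 and 1 were tested; Siglech, Igkc and Ramp2 fell and Ighm rose in LPS, and Ighm rose in SLC_LPS.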

How the data were processed

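Single-cell RNA libraries of 6 mouse lungs (BD Rhapsody, DNBSEQ-T7 with 150 bp paired reads, per the labels) were used as deposited UMI counts per gene and barcode. The authors deposited whole-number counts with no normalization, 31589233 to 48641470 UMIs a library. GRCm39 and mm39 are the builds in the submitters' processing notes. No label or header used here names the counting tool. The files held 0 columns of other samples.

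Members and gene lists were chosen with earlier results of these data known. Counts were summed per library over the members and tested with edgeR 4.0.16 (quasi-likelihood, TMM, low-count filter, Benjamini-Hochberg adjustment, threshold 0.05) in R 4.3.3, on libraries with at least 10 members. The 9 genes of the rule were left out of calls. CPM divides a gene's UMIs by all UMIs of the members in that library. Class shares were tested on cell counts of 11 gated classes, with p adjusted over the classes. Scripts were tested on simulated data. DESeq2 1.42.0 and limma 3.58.1 were also used, with scanpy 1.11.5 and scipy 1.17.1 in Python 3.11.15. Doublets were not removed in the results given. Leaving out the top 6% of scores was tried as an alternative, with an expected doublet rate of 0.06.

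Free RNA was profiled from barcodes with 10 to under 100 UMIs. Its share of the members' UMIs is the median, over genes of other cell types, of the members' level divided by the profile's level. Single genes named are up to 10 rises and 10 falls per comparison and up to 6 genes a list. These rises and falls passed, and their higher group averaged 100 CPM or more over the libraries in the fit. They also had no overlap between the libraries of the groups compared, including libraries outside the fit. Where under 5 passed, the 5 smallest p were named. A few genes that this rule names are not reported here. Intervals and floors cover counting error only. Each library is a separate mouse. Replicate numbers come from sample names, and same-numbered libraries did not deviate together (correlations 0.095, -0.20 and -0.20 over 8002 genes), so they were not treated as pairs. Between 0 and 6 kept barcodes were shared by any pair of libraries. Alternatives covered scaling, filters, gates, doublets, free RNA, DESeq2, the replicate block and left-out libraries.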

Additional observations from a re-analysis of the deposited data

Results flagged for a closer look

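Genes whose response to LPS or to SLC_LPS differed between type 1 and type 2 dendritic cells of the same libraries are listed with the difference (type 1 minus type 2, log2) and the adjusted p of edgeR's interaction test. They were chosen after the values were seen, as those that passed both with 4 and with all 6 libraries.

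For LPS against PBS, the largest negative differences with UMIs in every library of the fit were those of Hspa1b (-4.67, adjusted p = 0.000334), Ifi205 (-4.64, adjusted p = 0.000362) and Cln3 (-4.28, adjusted p = 0.0174). Hspa1a, the other inducible chaperone gene, gave -3.93 (adjusted p = 0.00307), and without LPS library 1 the Hspa1b response difference, LPS against PBS, turned to 0.20 over the other 5 libraries. Type 2 cells held Hspa1b at 1379 CPM in LPS library 1 and 33.4 CPM in LPS library 2. Smim36 gave -3.69 (adjusted p = 0.0260), Tnfsf9 -3.43 (adjusted p = 0.00163), Malt1 -3.17 (adjusted p = 0.00307) and Cd40 -3.12 (adjusted p = 0.0160). Rgs1 gave -2.85 (adjusted p = 0.00937), Il1b -2.59 (adjusted p = 0.000334), Bcl2a1a -2.23 (adjusted p = 0.0107), AA467197 -2.06 (adjusted p = 0.0203) and AW112010 -1.85 (adjusted p = 0.0174). Areg, the growth factor amphiregulin, was the one positive difference (3.58, adjusted p = 0.0123), with 13.5 and 9.59 CPM in type 1 cells in PBS, 86.9 and 0 CPM in LPS. Type 2 cells held Areg at 163 and 165 CPM in PBS, 90.6 and 74.4 CPM in LPS, and 90.9 and 41.5 CPM in SLC_LPS. Without LPS library 1 the Areg response difference, LPS against PBS, turned to -4.45, against type 1 cells at 0. Enthd1 gave a fitted -9.72 (adjusted p = 0.0426) that is no bound, since type 1 cells of LPS library 1 held 0 UMIs, at least 2.96-fold below PBS.

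For SLC_LPS against PBS, Hspa1b gave -3.34 (adjusted p = 0.0172), Cd81 -3.22 (adjusted p = 0.00951), the junction molecule gene F11r -3.10 (adjusted p = 0.0173) and AW112010 -2.99 (adjusted p = 0.00951). Bcl2a1a gave -2.84 (adjusted p = 0.0172), Rgs1 -2.84 (adjusted p = 0.0179), Il1b -2.48 (adjusted p = 0.00102) and Mki67 -2.48 (adjusted p = 0.0261). Ccl6 gave -2.04 (adjusted p = 0.0247) and Vim, the intermediate filament vimentin, -1.58 (adjusted p = 0.0218). AW112010 stood in type 2 cells at 55.3 and 40.7 CPM in PBS and 961 and 198 CPM in LPS, and 53.5 and 1031 CPM in SLC_LPS, where library 1 lay within the PBS range. It stood in type 1 cells at 88.5 and 63.0 CPM in PBS, 474 and 43.5 CPM in LPS, and 0 and 249 CPM in SLC_LPS.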

How the results depend on the processing

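Calls on genes of type 1 cells depended on the libraries used and on the tool. For LPS against PBS 1337 genes passed, against 108 by DESeq2, and with all 6 libraries 0, or 5 by DESeq2, with a range of 0 to 634 when 1 library was left out (634 without LPS library 2, 31 without LPS library 1, 20 and 4 without PBS library 1 and 2). For SLC_LPS against PBS 841 passed, against 101 by DESeq2 and 551 without the top doublet scores, and with all 6 libraries 0, or 16 by DESeq2, ranging from 0 to 461 (461 without LPS library 2, 263 without LPS library 1, 18 and 11 without PBS library 1 and 2). For SLC_LPS against LPS 62 passed, against 0 by DESeq2, 21 with the stricter gate and 6 without the top doublet scores, and with all 6 libraries 0 by either tool, ranging from 0 to 117 (117 without LPS library 1). For both LPS groups against PBS 1641 passed, against 165 by DESeq2, and with all 6 libraries 0, or 21 by DESeq2, ranging from 0 to 961 (961 without LPS library 2, 140 without LPS library 1, 29 and 11 without PBS library 1 and 2). The replicate block could not be fitted on 4 libraries. On all 6 the block gave 1, 1, 0 and 7 calls in these comparisons. The fit of 4 libraries without PBS library 1 or 2, and that of SLC_LPS and LPS alone, have no residual degrees of freedom and gave no value.

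Differences in response between type 1 and type 2 cells numbered 51, 24 and 0 for LPS, SLC_LPS and SLC_LPS against LPS. They numbered 246, 142 and 25 with no filter on low counts and 207, 118 and 10 with relative log expression factors. With all 6 libraries SLC_LPS against LPS gave 4, and leaving out 1 of the 6 gave 2 to 76, 1 to 75 and 1 to 25, lowest without a PBS library (2 and 3 for LPS, 3 and 1 for SLC_LPS; 53 without SLC_LPS library 1 and 55 without LPS library 2 for SLC_LPS). Without LPS library 1 the 4-library count for SLC_LPS was 38.

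The share in LPS against PBS passed when cells were thinned to 1000 UMIs (-3.80) and with stricter cell filters (-3.70). In SLC_LPS it no longer passed outside the neutrophil gate (-3.25), with the stricter gate (-3.96), with TMM over classes (-2.44), with the replicate block (-3.83), or without PBS library 1, PBS library 2 or SLC_LPS library 1 (-3.97, -3.54 and -3.04; range with 1 library left out -5.31 to -3.04). SLC_LPS against LPS turned to 0.018 when thinned and to 0.14 to 0.54 without SLC_LPS library 1 or LPS library 1 (range -2.13 to 0.54). For both LPS groups it was lost with the stricter gate (-3.55), with TMM (-2.24) and without either PBS library (-3.68 and -3.24; range -4.24 to -3.11).

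Single genes that turned sign were Retnlg in SLC_LPS against PBS (-0.069 with all libraries but SLC_LPS library 2) and, in SLC_LPS against LPS, Cd14 with the stricter gate (0.34). Over all 6 libraries Ahnak gave -0.95, -0.75 with the block, -1.06 by DESeq2 and -1.72 to -0.58 with 1 left out (-1.64 without SLC_LPS library 2), and Mcl1 gave -0.0021 by DESeq2. Without LPS library 1 or SLC_LPS library 2 Dapk1 gave -0.12 and -0.23 and Mcl1 -0.36 and -0.40, and without the latter Gpr171 gave -0.84. Il12b in type 1 dendritic cells, SLC_LPS against LPS, gave -7.19 without that library. Without LPS library 1 the response difference was 0.20 for Hspa1b and -4.45 for Areg. The causes were not tested. The 4 to 28 members of each library after LPS limit what these counts can show.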
